A study of Mus musculus with 3 samples.

Results

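The genes described here encode the 9 pore-forming subunits of 2 families of glutamate-gated ion channel, the AMPA receptors (Gria1, Gria2, Gria3 and Gria4) and the kainate receptors (Grik1, Grik2, Grik3, Grik4 and Grik5). They were chosen by name and are 9 of the 20368 genes in the table, all of them present. The cells came from the prefrontal cortex of mice of both sexes (strain and genotype not given in the labels), which inhaled about 3% sevoflurane, a volatile general anaesthetic, on postnatal day 6 and were killed the same day. Droplet sequencing on the 10x Genomics Chromium platform gave 3 libraries of 1 group, with 4775, 5134 and 4283 cells in libraries 1, 2 and 3. The labels describe frozen tissue and RNA extraction, and not how cells were obtained. No unexposed group is labelled, so each comparison sets cell classes of exposed tissue against one another and measures no effect of the anaesthetic. Nothing in the labels ties the libraries to separate animals, and p-values therefore reflect a spread between libraries that may be technical.

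AMPA receptors carry most fast excitatory signals between neurons and are assembled from 4 subunits, GluA1 to GluA4, the products of Gria1 to Gria4. Channels that contain an edited GluA2 pass little calcium, and channels without it pass more. Kainate receptors are assembled in the same way. GluK1 to GluK3 (Grik1 to Grik3) can form channels by themselves, while GluK4 and GluK5 (Grik4 and Grik5) need a partner from that group. Oligodendrocyte precursor cells (OPCs), the dividing glia that give rise to myelin-forming oligodendrocytes, receive direct synaptic input from neurons and carry AMPA receptors.

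The start-site regions of 4 members are shown so that the letters before genes with different class patterns can be set side by side. RefSeq's promoter table (GRCm38.p6) held 6 of the 9 members, and the 4 shown are those whose 250 bases before the start lie outside the annotated gene. It held no entry for Gria1, Gria3 or Grik1. The lines run 5′ to 3′ on the gene's own strand, and capitals mark the motifs found. The windows are chr3:80802836-80803085 (minus strand) for Gria2, chr9:4796235-4796484 (minus) for Gria4, chr4:125490446-125490695 (plus) for Grik3 and chr7:25072370-25072619 (minus) for Grik5.
Gria2: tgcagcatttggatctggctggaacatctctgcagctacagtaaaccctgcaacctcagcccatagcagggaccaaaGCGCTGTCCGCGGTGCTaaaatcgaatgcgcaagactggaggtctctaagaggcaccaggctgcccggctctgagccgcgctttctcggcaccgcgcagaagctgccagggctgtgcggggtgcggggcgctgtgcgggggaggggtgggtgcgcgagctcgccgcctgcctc
Gria4: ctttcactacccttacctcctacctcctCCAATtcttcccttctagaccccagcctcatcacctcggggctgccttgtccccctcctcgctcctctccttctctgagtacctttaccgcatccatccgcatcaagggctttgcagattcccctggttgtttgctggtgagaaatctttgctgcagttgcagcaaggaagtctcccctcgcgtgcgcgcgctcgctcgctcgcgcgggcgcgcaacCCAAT
Grik3: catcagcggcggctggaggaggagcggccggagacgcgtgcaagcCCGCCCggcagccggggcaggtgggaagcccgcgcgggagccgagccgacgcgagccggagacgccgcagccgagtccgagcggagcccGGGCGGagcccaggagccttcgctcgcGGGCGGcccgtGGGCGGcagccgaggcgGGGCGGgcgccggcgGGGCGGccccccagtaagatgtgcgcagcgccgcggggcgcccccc
Grik5: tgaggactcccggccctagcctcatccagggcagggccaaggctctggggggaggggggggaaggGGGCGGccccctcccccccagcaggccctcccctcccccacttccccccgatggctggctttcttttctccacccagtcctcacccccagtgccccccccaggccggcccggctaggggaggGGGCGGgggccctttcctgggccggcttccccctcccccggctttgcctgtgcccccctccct
Both strands were searched for a GC box (GGGCGG, in 32.7% of all 32851 promoters of that length), a CCAAT box (CCAAT, 33.8%), an E-box (CAGCTG, 13%), a Sox motif (ACAAAG, 16.5%), a TATA box (TATAAA, 12.4%) and an NRF1 core (0.782%). The RE1 core, part of the element bound by the repressor REST, was added after the Gria2 letters had been seen: it is the run in capitals in Gria2, with any base allowed at 2 positions. Gria2 held 1 RE1 core, which 4 of the 32851 promoters (0.0122%) held, and none of the other motifs. Gria4 held 2 CCAAT boxes. Grik3 held 6 GC boxes in letters that were 82% G or C, against a median of 52.4% over all promoters, and Grik5 held 2 GC boxes. No 2 matches overlapped, and a match is a run of letters and says nothing about binding.

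Cell classes were set by a pair of marker genes, both above 0 in a cell, and cells that met 2 rules (513) were dropped. This gave 27 oligodendrocytes (Mag and Mobp), 72 Cajal-Retzius cells (Reln and Ndnf), 1819 neuroblasts (Dlx1 and Sp9), 2787 OPCs (Pdgfra and Lhfpl3), 1655 microglia (P2ry12 and Csf1r), 908 endothelial cells (Cldn5 and Flt1) and 3495 astrocytes (Aqp4 and Gja1). Another 2916 of the 14192 cells met no rule. The other 4 or 5 markers of each list all had their highest level in the class the list is named for. Cajal-Retzius cells, the early-born neurons of the outermost cortical layer, also held the glutamatergic genes Tbr1 (98.6% of cells) and Slc17a6 (93.1%) and Gad1 in 0 of 72 cells, which allows up to 4.17%. The other 3 of the 5 excitatory markers, Neurod6, Neurod2 and Slc17a7, were not highest in this class. Their highest level was in microglia, where all 5 summed to between 3.32 and 11.2 CPM. Neuroblasts held the GABA-synthesis genes Gad1 (40.7%) and Gad2 (71.4%), and their summed excitatory markers were between 1.04 and 7.62 CPM. Of the 5 inhibitory markers, 4 were highest in neuroblasts and 1 in endothelium. In neuroblasts of libraries 1, 2 and 3, Lhx6 was only at 0.484, 0 and 0.238 CPM and Sst at 2.48, 0 and 0.672 CPM. Values are depth-corrected counts, scaled to CPM (1000000 per cell) and averaged within class and library. Median detected genes per cell were 2719, 3334.5, 1867, 2654, 1903, 2853.5 and 2766 in oligodendrocytes, Cajal-Retzius cells, neuroblasts, OPCs, microglia, endothelium and astrocytes. Libraries shared 90 barcode sequences.

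**Figure D1:**
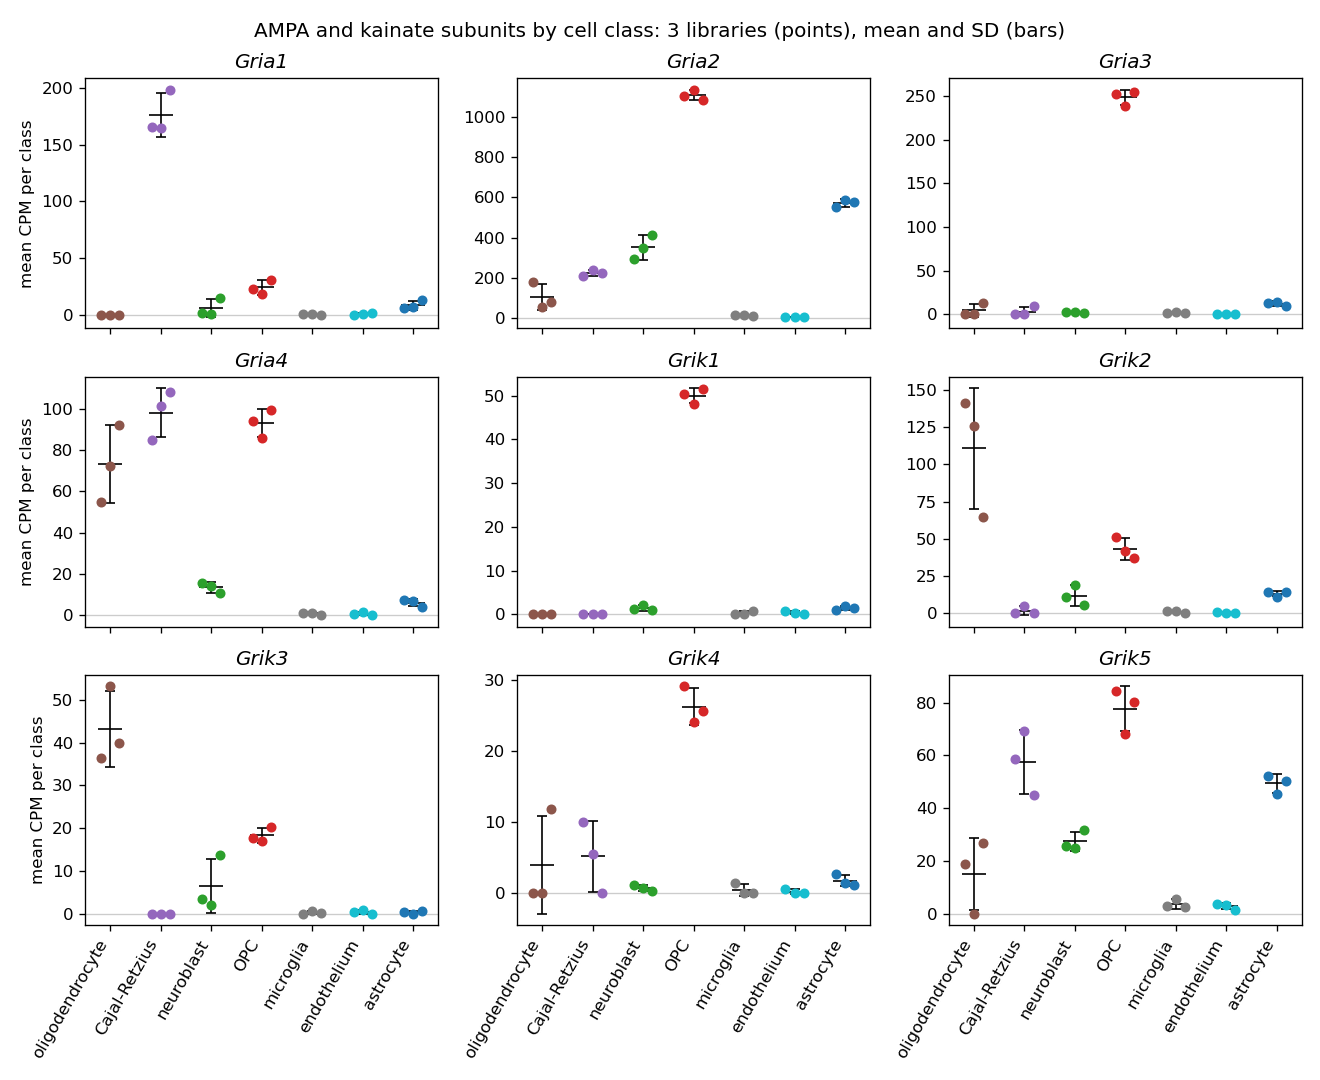
Mean CPM of each subunit gene (vertical axes, linear, 1 panel per gene) in 7 cell classes. Points are the 3 libraries and bars are mean and SD; the OPC points lie above the astrocyte points in every panel, and Gria1 alone of the 9 is highest in Cajal-Retzius cells with no overlap with the next class.

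OPCs had more RNA of every AMPA subunit gene than astrocytes. Gria2, whose product limits calcium entry, was at 1100.3, 1133 and 1084 CPM in OPCs of libraries 1, 2 and 3, against 551, 588 and 577 CPM in astrocytes. The difference was a log2 fold of 0.94 ± 0.10 (SE; limma, adjusted p = 1.92e-06), on a scale of log2(CPM + 10) that draws weakly expressed genes toward 0. Both classes were uniform between libraries, and the gap was far wider than either spread. Gria3 stood at 252, 238 and 254 CPM in OPCs, against 13.0, 14.4 and 9.06 CPM in astrocytes. Gria4, which encodes GluA4, stood at 94.1, 85.9 and 99.7 CPM in OPCs, against 7.39, 6.58 and 4.06 CPM in astrocytes. Gria1 was at 23.3, 18.7 and 31.3 CPM in OPCs, against 6.17, 6.76 and 13.1 CPM in astrocytes, so the libraries differed more than for the other 3 but the groups did not overlap. Log2 folds were 3.55 ± 0.19 for Gria3, 2.69 ± 0.13 for Gria4 (adjusted p = 2.25e-10) and 0.89 ± 0.19 for Gria1 (0.00136, limma). Gria3 reached the mean of 5 CPM over classes that a test needed only through OPCs. Its difference was therefore built in, and its p is not given.

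The kainate genes followed the same order. Grik1 was at 50.3, 48.2 and 51.6 CPM in OPCs, against 0.949, 1.85 and 1.37 CPM in astrocytes. In no other class did it pass 2.19 CPM in any library. Grik2 was at 51.6, 41.6 and 37.0 CPM in OPCs, against 14.2, 11.3 and 14.2 CPM in astrocytes. Grik4, one of the partners that cannot form a channel alone, was at 29.1, 24.1 and 25.6 CPM in OPCs, against 2.71, 1.39 and 1.18 CPM in astrocytes. Grik5, the other such partner, was the kainate gene with the smallest gap: 84.5, 68.1 and 80.3 CPM in OPCs, against 52.2, 45.4 and 50.5 CPM in astrocytes. Grik3 had 17.8, 16.9 and 20.3 CPM in OPCs, against 0.470, 0 and 0.497 CPM in astrocytes, and did not reach the mean of 5 CPM over classes that a test needed. Log2 folds were 2.398 ± 0.08 for Grik1, 1.19 ± 0.18 for Grik2 (adjusted p = 5.82e-05), 1.63 ± 0.14 for Grik4 and 0.56 ± 0.15 for Grik5 (0.00626, limma). Of the members tested, Gria3, Grik1 and Grik4 reached that minimum only through OPCs. A difference of OPCs from other classes was therefore built in for these genes, and their p-values against astrocytes are not given. Over all 11893 genes, 45.4% were called, 3519 higher and 1876 lower (median log2 fold 0.13), or 2567 and 2310 (median −0.0018) with each class centred on its median gene. Of all genes 29.6% were called higher. Gria1, Gria2, Gria4, Grik2 and Grik5, the 5 that did not depend on OPCs to be tested, were called higher on both scales. Without library 1 the adjusted p was 0.0523 for Gria1 and 0.0876 for Grik5, and Grik4 was no longer tested. Grik5 also missed the threshold with a pseudocount of 1 CPM (0.0713) and with oligodendrocytes added to the fit (0.234), and Gria1 with means of the deposited log values (0.0972).

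Neuroblasts had less of each tested subunit than OPCs, and against astrocytes were mixed. Of this class, 603 of 1819 cells had Mki67 or Top2a, genes of dividing cells, above 0. Gria2 was at 291, 349 and 412 CPM in neuroblasts, below every OPC and astrocyte library. Its log2 fold was −1.64 ± 0.10 against OPCs (adjusted p = 2.93e-09) and −0.70 ± 0.10 against astrocytes (2.44e-05; limma). Among cells with at least 2000 detected genes the log2 fold against astrocytes was −1.43. Gria3 was nearly absent from neuroblasts, at 2.24, 3.10 and 1.31 CPM (log2 fold −4.40 ± 0.19 against OPCs, adjusted p = 5.68e-11). Gria4 was the 1 member called higher than in astrocytes, at 15.6, 13.96 and 10.5 CPM in neuroblasts (log2 fold 0.54 ± 0.13, adjusted p = 0.00227), and far lower than in OPCs (−2.15 ± 0.13, 2.43e-09). Grik5 was at 25.7, 24.8 and 31.6 CPM in neuroblasts, with log2 folds of −1.23 ± 0.15 against OPCs (5.09e-06) and −0.67 ± 0.15 against astrocytes (0.00119). The remaining members called against OPCs were Gria1 (−1.19 ± 0.19), Grik1 (−2.39 ± 0.08), Grik2 (−1.32 ± 0.18) and Grik4 (−1.76 ± 0.14), the highest adjusted p among these 4 being 8.51e-05. Gria3, Grik1 and Grik4 were tested only through their OPC level. A difference from OPCs was therefore built in for these genes, and their p-values against OPCs are no evidence of it.

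Called against OPCs were 51.8% of all genes, 1654 higher and 4501 lower, or 4560 and 2312 with centred values (median −0.21, or 0.25). Of all genes 37.8% were called lower. Gria1, Gria2, Gria4, Grik2 and Grik5 were lower on both scales, with centred log2 folds of −0.74 for Gria1, −0.87 for Grik2 and −0.77 for Grik5. Called against astrocytes were 58.6% (23.5% higher and 35.1% lower), 2791 higher and 4176 lower, or 4605 and 2789 centred (median −0.12, or 0.21). There Gria4 was called higher and Gria2, Gria3 and Grik5 lower. Centring left the last 3 lower at −0.38, −0.53 and −0.35, gave 0.87 for Gria4 and added Grik1 as higher (0.33). With means of the deposited log values Gria4 (adjusted p = 0.460) and Gria3 (0.0550) were not called against astrocytes, and with oligodendrocytes in the fit Grik5 was not (0.110). The remaining 4 tested members had adjusted p from 0.191 to 0.95 against astrocytes, and Gria1 passed as lower there without library 3 (log2 fold −0.51) and among cells with at least 2000 detected genes (−0.47). Grik2 passed as lower without library 2 (−0.42) and was 0.13 without library 3. These comparisons share their neuroblast libraries.

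Gria1 and Grik3 had a wide spread between the neuroblasts of the 3 libraries relative to their low levels. Gria1 was above 0 in 7 of 779, 2 of 426 and 31 of 614 neuroblasts of libraries 1, 2 and 3, at 2.25, 0.867 and 14.9 CPM. Grik3 was above 0 in 13, 5 and 36 of the same cells, at 3.44, 2.09 and 13.6 CPM. Library 3 was high for both genes. Its neuroblasts also had less Mki67, a gene of dividing cells (98.9 CPM, against 232 and 252 in libraries 1 and 2), more of the vesicular GABA transporter gene Slc32a1 (134, against 52.5 and 47.8) and more Sp8 (372, against 236 and 267). The part of these markers in the Gria1 and Grik3 levels was not tested.

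Cajal-Retzius cells differed from neuroblasts most in Gria1. They held 165, 165 and 198 CPM of Gria1, the subunit best known from synaptic plasticity, against 2.25, 0.867 and 14.9 CPM in neuroblasts. The log2 fold was 3.64 ± 0.19 (limma, adjusted p = 2.13e-10), and the class also lay above OPCs with no overlap. Gria4 was at 85.1, 101 and 108 CPM in Cajal-Retzius cells, overlapping the OPC libraries, against 15.6, 13.96 and 10.5 CPM in neuroblasts (2.21 ± 0.13, 8.95e-10). Grik5 was at 58.8, 69.2 and 44.9 CPM in Cajal-Retzius cells, against 25.7, 24.8 and 31.6 CPM in neuroblasts (0.84 ± 0.15, 1.39e-04). The mean level of Gria2 was lower, at 209, 240.2 and 226 CPM in Cajal-Retzius cells, against 291, 349 and 412 CPM in neuroblasts (−0.61 ± 0.10, 8.93e-05). This Gria2 difference did not keep its direction: it was 0.14 (adjusted p = 0.214) among cells with at least 2000 detected genes and 0.043 (0.498) with means of the deposited log values. It missed the threshold with oligodendrocytes in the fit (0.0528), and was −1.001 with centred values. Its share of cells ran the other way: Gria2 was above 0 in 82.5% ± 10.7 of Cajal-Retzius cells and 64.1% ± 5.53 of neuroblasts, or 61.4% and 58.2% after each cell was thinned to 4000 corrected counts. No order of the 2 classes is read from these Gria2 values. Centring gave a log2 fold of 0.45 for Grik5.

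The other kainate genes were scarce in Cajal-Retzius cells. Grik1 and Grik3 were above 0 in 0 of 72 cells, which allows a share of up to 4.17%. In neuroblasts they were above 0 in 14 (0.770%) and 54 (2.97%) of 1819 cells. Both shares lie under that limit, so the 0 of 72 cells does not show a lower share. Grik2 was above 0 in 1 of 72 cells and Grik4 in 3, against 101 and 9 of 1819 neuroblasts. Gria3 was above 0 in 1 of 72 cells, against 18 of 1819 neuroblasts, and was not called (adjusted p = 0.937); without library 3, which held that cell, it was called lower (0.0198). Grik1 (0.0422; log2 fold −0.19, or −0.59 centred) and Grik2 (5.09e-04) were called lower and Grik4 higher (0.0116; limma). The Grik1 call missed the threshold without library 1 (0.113) or library 2 (0.239), with a pseudocount of 30 CPM (0.170) and with means of the deposited log values (0.482), and the Grik4 call without library 2 (0.130), with centred values (0.772) and among cells with at least 2000 detected genes (0.0587). Without library 3, which held no Cajal-Retzius cell with Grik4, the Grik4 log2 fold was 0.69, against 0.45 with all 3. Called over all genes were 66.0% (38.9% higher and 27.2% lower), 4624 higher and 3229 lower, or 3121 and 5338 centred (median 0.13, or −0.26), and of the members 4 were higher and 3 lower, or 3 and 3 centred. Cajal-Retzius cells had more detected genes than neuroblasts, and numbered 29, 27 and 16 in libraries 1, 2 and 3.

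Oligodendrocytes numbered 8, 8 and 11 per library, under the minimum of 10, and were tested with a minimum of 5 chosen after the class sizes were seen. Mean levels of Grik2 and Grik3 were higher there than in OPCs, and most other members were called lower. Grik2 was at 142, 126 and 64.9 CPM in oligodendrocytes, against 51.6, 41.6 and 37.0 CPM in OPCs (log2 fold 1.12 ± 0.23; limma, adjusted p = 4.82e-04). Grik3 was at 36.5, 53.2 and 39.9 CPM in oligodendrocytes, against 17.8, 16.9 and 20.3 CPM in OPCs, a log2 fold of 0.90 ± 0.18. Grik3 reached the minimum level for a test only through oligodendrocytes and so had to differ, and its p is not given. Centring gave 1.71 for Grik2 and 1.49 for Grik3. Groups did not overlap for either gene, which were above 0 in 14 and 8 of the 27 oligodendrocytes. Grik2 missed the threshold with a pseudocount of 1 CPM (0.0556) and with weights estimated per class (0.0866).

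Gria2 was at 179, 55.0 and 81.1 CPM in oligodendrocytes, against 1100.3, 1133 and 1084 CPM in OPCs (−3.43 ± 0.25, 8.30e-09). Gria4 was the AMPA gene that kept the most similar level, at 55.0, 72.3 and 92.4 CPM in oligodendrocytes, against 94.1, 85.9 and 99.7 CPM in OPCs (−0.33 ± 0.18, 0.124). It passed as lower without library 3 (−0.45) and with both class markers at 2 or more counts (−1.11), and was 0.26 with centred values. Gria1 and Grik1 were above 0 in 0 of 27 oligodendrocytes, which allows up to 11.1%, Gria3 and Grik4 in 1 each and Grik5 in 3, all 5 of them called lower (highest adjusted p 9.76e-05). Of these Gria3, Grik1 and Grik4 were tested only through their OPC level, so their p-values are no evidence of a difference. Called over all 11876 genes were 58.5% (12.3% higher and 46.1% lower), 1465 higher and 5480 lower, or 3326 and 2675 centred (median −0.49, or 0.10). On both scales 2 members were called higher and 6 lower.

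Microglia and endothelial cells had the least of most members and serve as the background for the other classes. The endothelial class also held mural-cell markers (summed level 1677 to 2604 CPM) and the microglial class border macrophage markers (478 to 757 CPM). Erythroid markers summed to 7213 to 8491 CPM in endothelium, 838 to 5684 CPM in microglia and 2199 to 3668 CPM in astrocytes. The part of these other cells in the values was not tested. Gria2 was at 15.2, 13.996 and 11.6 CPM in microglia and 6.56, 5.48 and 6.88 CPM in endothelium, against 551, 588 and 577 CPM in astrocytes (log2 folds −4.63 ± 0.10, adjusted p = 2.72e-14, and −5.16 ± 0.10, 6.15e-15; limma). It was above 0 in 4.78% ± 0.49 of microglia and 2.75% ± 0.59 of endothelial cells (SD, n = 3 libraries). The other 8 members were above 0 in at most 2.73% of microglia and 2.02% of endothelial cells in any library. Shares of other classes near these are read as background. In both comparisons the 4 AMPA genes, Grik2 and Grik5 were called lower, and Grik1 and Grik4, at most 2.71 CPM in any astrocyte library, were not called. Over all genes 61.8% (42.3% lower) and 59.0% (34.9% lower) were called, with 2318 higher and 5027 lower in microglia (3895 and 3028 centred; median −0.25, or 0.11) and 2867 and 4150 in endothelium (3560 and 3254 centred; median −0.12, or 0.05). With a pseudocount of 1 CPM Grik1 was called lower in both classes (0.0154 in microglia and 0.0418 in endothelium). Centring ended the microglial calls of Gria1 (adjusted p = 0.0556) and Gria4 (0.196). Means of the deposited log values ended those of Gria1 and Gria4 in both classes (0.309 to 0.465).

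The share of cells with a gene above 0 also separated OPCs and astrocytes. Gria2 was above 0 in 96.4%, 97.7% and 97.6% of OPCs of libraries 1, 2 and 3, and in 81.2%, 85.6% and 86.5% of astrocytes. Gria3 was above 0 in 69.9%, 65.5% and 70.2% of OPCs, against 7.51%, 8.26% and 5.20% of astrocytes. Gria1 was above 0 in 81.0% ± 16.0 of Cajal-Retzius cells and 12.2% ± 2.63 of OPCs. Among kainate genes, Grik5 was in 33.7% ± 4.35 of OPCs, Grik1 in 23.8% ± 1.90, Grik2 in 21.2% ± 3.53, Grik4 in 13.9% ± 1.47 and Grik3 in 9.55% ± 0.73. Shares depend on depth. With each cell thinned to 4000 corrected counts, which left out no cell, Gria2 was in 95.1% of OPCs and 77.4% of astrocytes, Gria3 in 58.0% of OPCs and 4.49% of astrocytes, and Gria1 in 54.3% of Cajal-Retzius cells. Within OPCs, Gria4 was in 22.1% ± 1.81 of cells with under 2000 detected genes and 53.5% ± 1.94 of those with at least 3000, and Grik1 in 12.2% ± 5.66 and 36.9% ± 2.27.

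**Figure D2:**
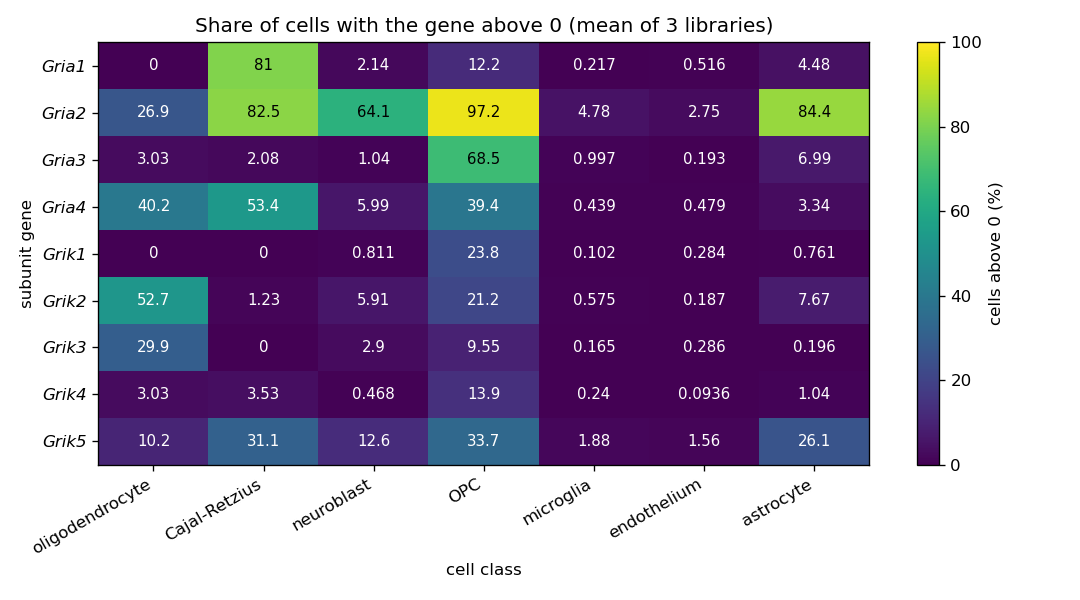
Percent of cells with each subunit gene above 0, as colour and printed number (mean of 3 libraries), for subunit genes (vertical axis) in 7 cell classes (horizontal axis). Gria2 reaches 97.2% of OPCs and 84.4% of astrocytes, while microglia stay at 4.78% or below for all 9 genes.

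Most OPCs held several AMPA genes at once. Of OPCs, 17.99% ± 3.27 had 1 AMPA gene above 0, 46.2% ± 0.95 had 2, 30.2% ± 2.73 had 3, 4.08% ± 0.89 had all 4 and 1.53% ± 0.30 had none. Of astrocytes, 74.4% ± 3.80 had 1 and 0.822% ± 0.085 had 3. The commonest sets in OPCs were Gria2 with Gria3 (960 cells, 34.4% ± 0.60), Gria2 with Gria3 and Gria4 (669 cells, 24.1% ± 1.32) and Gria2 alone (487 cells, 17.1% ± 3.08). In Cajal-Retzius cells they were Gria1 with Gria2 and Gria4 (23 cells, 34.6% ± 13.6) and Gria1 with Gria2 (22 cells, 30.5% ± 7.88). In neuroblasts Gria2 alone was the commonest (1040 cells, 58.0% ± 5.47), and 33.3% ± 5.56 of them had no AMPA gene above 0.

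**Figure D3:**
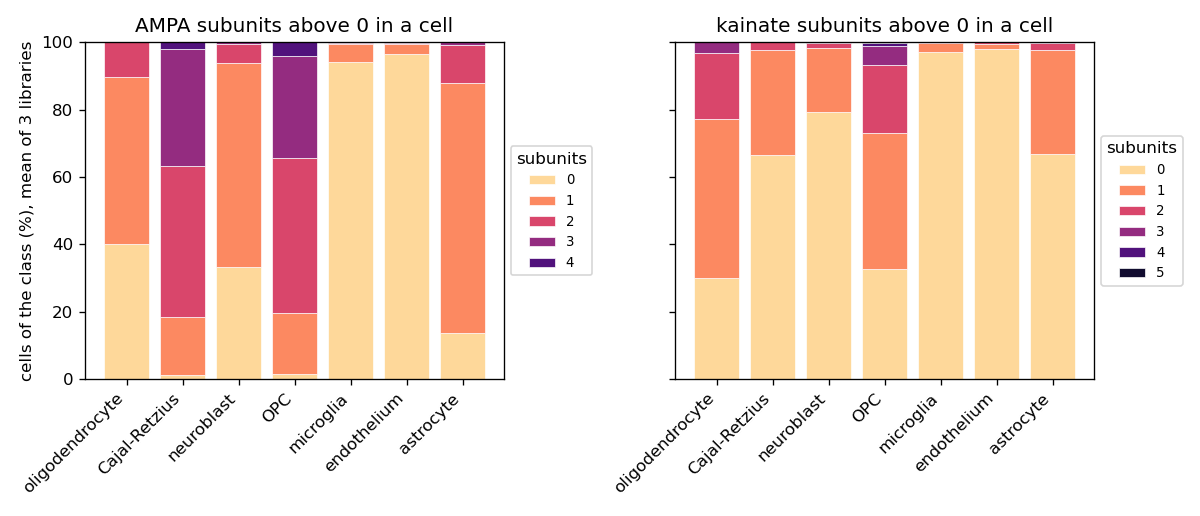
Percent of cells (vertical axis, mean of 3 libraries) by how many AMPA genes (left, 0 to 4) or kainate genes (right, 0 to 5) were above 0 in the cell. In OPCs 46.2% of cells held 2 AMPA genes and 30.2% held 3, while 94.1% of microglia and 96.6% of endothelial cells held none.

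Gria2 accompanied the other AMPA genes in nearly every OPC. Of 2258 OPCs with Gria1, Gria3 or Gria4 above 0, 2223 also had Gria2, and 35 did not. The share was 97.7%, 98.6% and 99.1% in libraries 1, 2 and 3, with exact (Clopper-Pearson) 95% binomial intervals of 96.3 to 98.7%, 97.6 to 99.3% and 98.1 to 99.7%, which cover counting error only. Among OPCs with none of the other 3 it was 91.5% ± 2.55, and among all OPCs 97.2% ± 0.75. Gria2 was in 89.9% ± 2.29 of OPCs with under 2000 detected genes and 98.1% ± 0.79 of those with at least 3000. The part of depth in this contrast was not tested. In the other classes more cells with Gria1, Gria3 or Gria4 lacked Gria2. The share with it was 81.9% ± 9.99 of 65 Cajal-Retzius cells, 69.96% ± 3.23 of 160 neuroblasts and 85.6% ± 4.0 of 491 astrocytes. Gria2 was also found in fewer cells of these classes as a whole. In OPCs Gria2 with Gria3 was in 67.4% ± 2.49 of cells, where the product of their shares gave 66.6%. A value of 0 in a cell need not mean that the gene was silent there.

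Of the 36 pairs among the 9 genes, 34 were found together in OPCs more often than the product of their shares, with a median ratio of 1.05 and a range of 0.909 to 1.39. Each member was found in a larger share of OPCs with at least 3000 detected genes than of those with under 2000. Within 5 equal groups of OPCs by detected genes the median ratio was 1.01 (0.852 to 1.26), with 26 pairs above 1. The pair farthest above was Gria1 with Grik1 (110 OPCs, ratio 1.39, or 1.26 within those groups), and the pair farthest below was Gria1 with Grik3 (29 OPCs, 0.909, or 0.852). Of pairs within a family, Grik1 with Grik3 (1.30) and Grik1 with Grik5 (1.19) had higher ratios than the AMPA pair with the highest, Gria1 with Gria4 (1.10). Within those groups the 2 kainate pairs were at 1.188 and 1.115, and the highest AMPA pair was Gria1 with Gria3 (1.038). A ratio is capped by the share of the commoner gene. Pairs with Gria2, in 97.2% of OPCs, could hardly exceed 1, so the families are not ranked by these ratios. Such ratios are descriptions in sparse counts. Kainate genes were each found in fewer cells than Gria2 or Gria3, and 40.5% ± 1.27 of OPCs had 1 kainate gene above 0, 19.9% ± 1.60 had 2, 5.67% ± 1.67 had 3 and 32.7% ± 3.87 had none. Among 385 OPCs with Grik4, which needs a partner, 100 had Grik1 (26.0%), 93 Grik2 (24.2%) and 37 Grik3 (9.61%). Shares of these 3 genes in all OPCs were close to that, at 23.6%, 21.2% and 9.47%. Within the groups by detected genes the ratios were 1.003, 1.061 and 0.957, so no particular pairing is read from the counts.

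Dividing cells were those with Mki67 or Top2a above 0, namely 603 neuroblasts and 710 OPCs. Gria2 was lower in dividing than in other cells of both classes. In dividing neuroblasts it was at 177, 229 and 206 CPM in libraries 1, 2 and 3, against 367, 438 and 458 CPM in other neuroblasts (log2 fold −1.01 ± 0.07; limma, adjusted p = 6.01e-10). In dividing OPCs it was at 939, 993 and 933 CPM, against 1149, 1183 and 1140 CPM in other OPCs (−0.27 ± 0.07, 0.0112). In neither class did the groups overlap. Dividing cells had more detected genes, with medians of 2685.5 to 2770 against 1677.5 to 1724 in other neuroblasts, and of 2953.5 to 3228 against 2446.5 to 2726.5 in other OPCs. The OPC effect minus the neuroblast effect was 0.74 ± 0.10 (1.24e-04), but was 0.30 and missed the threshold (0.289) among cells with at least 2000 detected genes, where the neuroblast log2 fold was −0.59 (9.80e-05). The centred OPC fold was −0.43. The OPC call missed the threshold without library 1 (0.0925), without library 2 (0.0804) and with means of the deposited log values (0.147).

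Grik1 was higher in dividing OPCs, at 57.2, 69.9 and 67.3 CPM, against 48.2, 40.4 and 45.8 CPM in other OPCs (0.45 ± 0.13, 0.0230). That call missed the threshold without any single library (0.0606, 0.269 and 0.0699), with centred values (0.120), with a pseudocount of 1 CPM (0.263) and among cells with at least 2000 genes (0.135). In dividing neuroblasts Gria1 (−0.48 ± 0.16, 0.0174) and Grik3 (−0.53 ± 0.20, 0.0343) were lower and Grik2 higher (0.50 ± 0.16, 0.0187), with overlapping groups for each. Without library 3 the log2 folds were −0.21 for Gria1, −0.21 for Grik3 and 0.35 for Grik2, with adjusted p of 0.254, 0.339 and 0.131. Without library 1 they were −0.52 for Grik3 (0.131) and 0.57 for Grik2 (0.0523), and without library 2 the Grik3 fold was −0.86. Grik2 was higher in dividing neuroblasts within each of the 3 libraries. Grik3 was lower in libraries 1 and 3 but higher in library 2, at 2.67 CPM in dividing and 1.65 CPM in other neuroblasts. Centred values gave −0.80 for Gria1, −0.85 for Grik3 and 0.18 for Grik2 (0.371), and added Grik5 as lower (−0.46). Among cells with at least 2000 detected genes Gria1 was −0.78 and Grik3 was not called (0.342). Gria3 was called higher without library 3 (0.0266). The fit without library as a block called Gria2 alone. Grik4 was at 2.97, 1.63 and 1.31 CPM in dividing neuroblasts, against 0 of 1216 other neuroblasts, which allows up to 0.247%, and was not called (0.0948). With a pseudocount of 1 CPM Grik4 (4.09e-04) and Grik1 (0.0203) were called higher in dividing neuroblasts. With means of the deposited log values Gria4 was called higher in dividing OPCs (9.84e-04). Over all 10674 genes 16.8% were called in OPCs (12.6% higher and 4.18% lower; 1348 higher and 446 lower, or 863 and 1575 centred; median 0.05, or −0.11) and 43.1% in neuroblasts (31.2% higher and 11.9% lower; 3328 and 1270, or 1355 and 3608 centred; median 0.15, or −0.17). Of the 9 members tested, 1 was higher and 1 lower in OPCs (0 and 1 centred), and 1 higher and 3 lower in neuroblasts (0 and 4 centred).

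**Figure D4:**
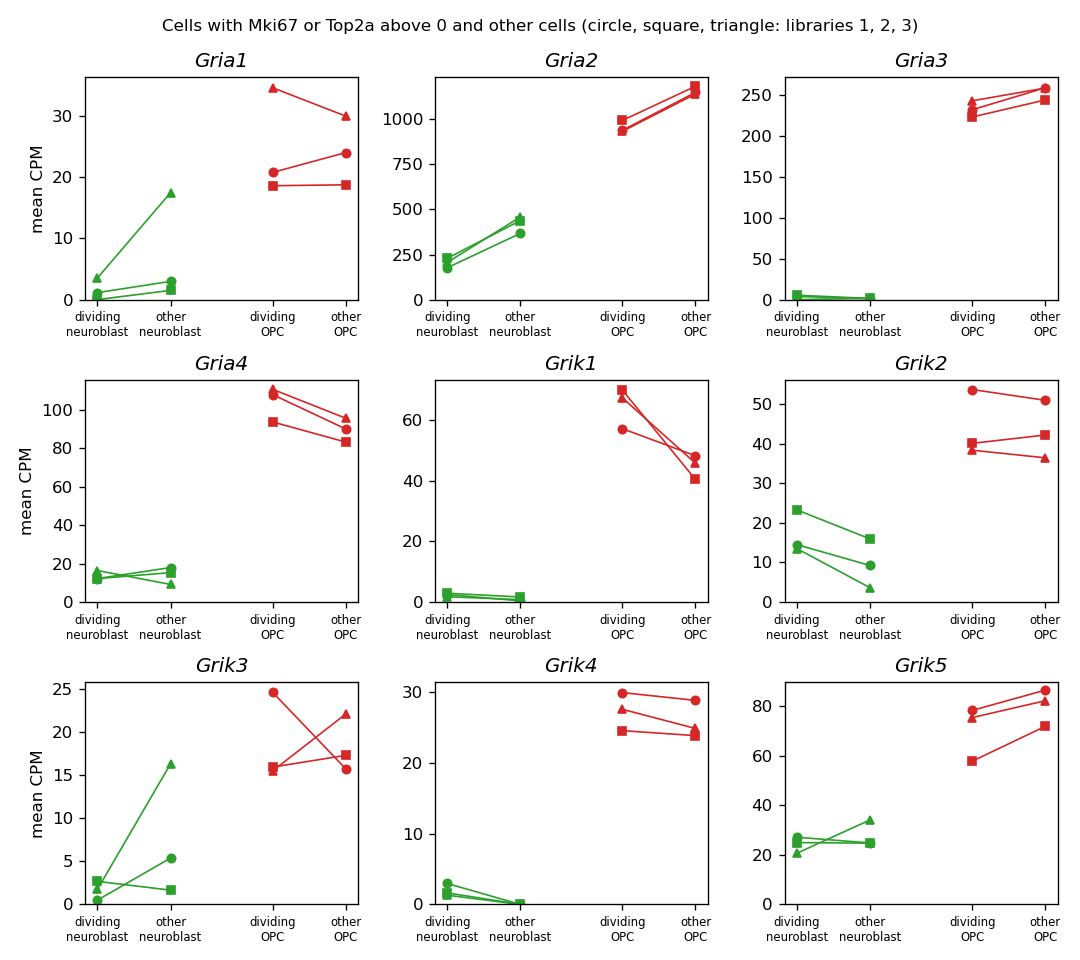
Mean CPM (vertical axes, linear) of each subunit gene in dividing and other neuroblasts (left pair) and OPCs (right pair), with a line joining the values of each library. Gria2 lies below the other cells of its class in all 3 libraries of both classes, at 177 to 229 CPM in dividing neuroblasts against 367 to 458 CPM in other neuroblasts.

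AMPA and kainate subunits work with auxiliary proteins, which set their gating and bring them to synapses, and with enzymes that edit their RNA. A list of 38 such genes, with scaffolds and related receptor genes, was read in the same fits, where 33 could be tested (31 in the fit of dividing cells) and a gene could reach the minimum through its highest class alone. In OPCs against astrocytes 15 were higher and 5 lower (14 and 6 centred), 60.6% of those tested against 45.4% of all genes, with a median log2 fold of 0.30 against 0.13. Cacng4, a transmembrane AMPA regulatory protein, was at 611, 589 and 525 CPM in OPCs, against 74.7, 66.8 and 51.8 CPM in astrocytes (2.98 ± 0.25; limma, adjusted p = 1.10e-07). Neto1, an auxiliary subunit of kainate receptors, was at 53.3, 53.7 and 53.7 CPM in OPCs, against 0.141, 0.703 and 1.72 CPM in astrocytes (2.55 ± 0.32, 8.73e-06). Shisa7, a modulator of AMPA receptors, was higher too (2.17 ± 0.20, 2.62e-07). Of these, Neto1 reached the minimum for a test only through OPCs. Its difference was therefore built in, and its p-value is no evidence of one. Gpc4, a glypican that astrocytes release and that draws AMPA receptors to synapses, was at 5.33, 3.01 and 3.32 CPM in OPCs, against 55.5, 56.5 and 54.3 CPM in astrocytes (−2.24 ± 0.11, 3.59e-10).

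In neuroblasts against astrocytes 6 genes were higher and 17 lower (69.7% called, against 58.6% of all genes; median −0.27, against −0.12), or 9 and 9 centred, so that the balance toward lower held on 1 scale only. Among the largest differences were those in Adarb2, an editing-enzyme relative without known editing activity (3.36 ± 0.25, 1.59e-08), and in Shisa9 (−2.47 ± 0.11, 4.89e-11) and Gsg1l (−2.40 ± 0.20, 6.38e-08), whose products are part of AMPA receptor complexes. Gsg1l reached the minimum for a test only through astrocytes, so its difference was built in and its p-value is no evidence of one. Adarb2 was at 95.02, 59.9 and 201 CPM in neuroblasts, highest in library 3. Against OPCs 5 were higher and 22 lower (81.8% called, against 51.8% of all genes; median −0.95, against −0.21), or 6 and 17 centred, and among the largest differences were those in Cacng4 (−2.64 ± 0.25), Frrs1l (−2.55 ± 0.22), which acts in AMPA receptor assembly, and the delta receptor gene Grid1. Grid1 was above 0 in 0.165% of neuroblasts, against 24.3% of OPCs.

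In Cajal-Retzius cells 25 genes were higher and 5 lower than in neuroblasts (90.9% called, against 66.0% of all genes, of which 38.9% were higher; median 1.01, against 0.13), or 19 and 7 centred. Nptx1, a secreted pentraxin that gathers AMPA receptors, was at 135, 117 and 118 CPM in Cajal-Retzius cells, against 0.260, 0.464 and 0 CPM in neuroblasts (limma, adjusted p = 3.44e-14). It was above 0 in 66.7% of Cajal-Retzius cells and 0.110% of neuroblasts. Prrt1, an AMPA receptor partner, was at 94.0 ± 7.47 CPM in Cajal-Retzius cells and 1.15 ± 0.40 CPM in neuroblasts (SD, n = 3 libraries; 3.22 ± 0.11, 1.49e-12). Epb41l1, a cytoskeletal anchor of GluA1, was at 87.5 ± 9.77 CPM and 3.18 ± 1.29 CPM in the same classes (2.89 ± 0.13, 2.84e-11). Of these, Nptx1 and Prrt1 reached the minimum for a test only through Cajal-Retzius cells. A difference of this class from others was therefore built in, and their p-values are no evidence of one. Adarb2 was above 0 in 1 of 72 Cajal-Retzius cells (1.39%), against 28.9% of neuroblasts, and was called lower (1.36e-08). Adarb1, which encodes the enzyme that edits the calcium site of GluA2, is named for that role and was chosen after its values were seen. It was at 49.8, 26.7 and 44.9 CPM in Cajal-Retzius cells, against 5.88, 5.31 and 1.96 CPM in neuroblasts (1.79 ± 0.18, 3.73e-07). It was also higher in OPCs, at 13.8, 14.2 and 15.2 CPM, against 5.71, 3.35 and 3.37 CPM in astrocytes (0.79 ± 0.18, 0.00203), a call that ended with means of the deposited log values (0.141) or oligodendrocytes in the fit (0.0973).

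In microglia 1 listed gene was higher and 25 lower than in astrocytes (3 and 16 centred; 78.8% called, against 61.8% of all genes), and in endothelium 1 and 21 (2 and 18 centred; 66.7%, against 59.0%), with Gpc4 and Shisa9 among the 4 largest in both. Gpc4 averaged 1.33 CPM in microglia and 1.91 CPM in endothelium, against 55.5 CPM in astrocytes, and Shisa9 1.64 and 0.562 CPM in the same 2 classes, against 54.3 CPM in astrocytes. Also among the 4 were Gsg1l in microglia (−2.43 ± 0.20) and Cacng4 in endothelium (−2.61 ± 0.25). Gsg1l was tested only through its astrocyte level, so its difference from astrocytes was built in. In oligodendrocytes 4 were higher and 19 lower than in OPCs (6 and 12 centred; 69.7% called, against 58.5% of all genes). Cacng4 was at 0, 0 and 13.5 CPM in oligodendrocytes, against 611, 589 and 525 CPM in OPCs, and Neto2, the other Neto auxiliary gene, at 17.7, 0 and 0 CPM in oligodendrocytes, against 114, 109 and 124 CPM in OPCs. Cnih2, a cornichon that carries AMPA receptors to the surface, was at 14.8 ± 13.6 CPM in oligodendrocytes and 131 ± 11.8 CPM in OPCs (−2.70 ± 0.33; limma, adjusted p = 3.27e-06). The pentraxin gene Nptx2 was above 0 in 0 of 27 oligodendrocytes, which allows up to 11.1%, against 62.1 ± 1.27 CPM in OPCs. Nptx2 was tested there only through its OPC level, so its difference from OPCs was built in. Dividing OPCs had more Nptxr, a pentraxin receptor (0.73 ± 0.14, 5.76e-04), more Neto2 (0.36 ± 0.11, 0.0215) and less Olfm3 (−0.50 ± 0.12, 0.00634) than other OPCs, and no other listed gene was called (9.68%, against 16.8% of all genes). The Neto2 call missed the threshold without library 1 (0.126) or 2 (0.164), with centred values (0.164) and among cells with at least 2000 detected genes (0.0985), and the Olfm3 call without library 1 (0.187) and with a pseudocount of 1 CPM (0.190). Dividing neuroblasts had 5 listed genes higher and 4 lower (29.0%, against 43.1% of all genes), or 2 and 15 centred, led by Adarb2 (−1.31 ± 0.19, or −0.65 among cells with at least 2000 detected genes), the scaffold gene Grip1 (−0.98 ± 0.20, or −0.60 without library 3), Neto2 (0.70 ± 0.11) and Nptx2 (0.68 ± 0.13). The Nptx2 call ended among cells with at least 2000 detected genes (0.0891) and with means of the deposited log values (0.0646).

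**Figure D5:**
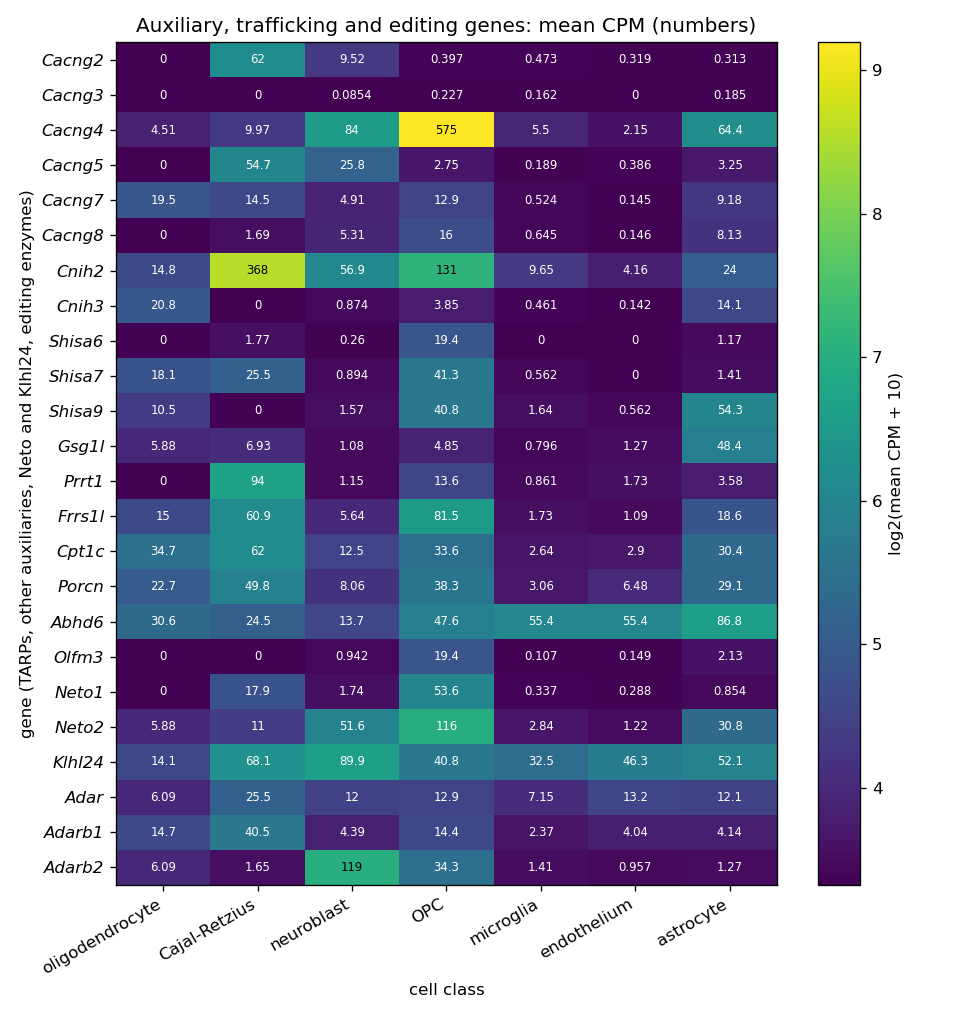
Mean CPM over 3 libraries (printed in each cell) of 24 auxiliary, trafficking and editing genes (rows) in 7 cell classes (columns), coloured by log2(mean CPM + 10). Cacng4 stands out in OPCs at 575 CPM and Cnih2 in Cajal-Retzius cells at 368 CPM.

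Genes whose class pattern was most like each tested member were taken by Pearson's r over 18 points, the means of 6 classes in 3 libraries. These points share libraries and are few, so r is a description. For the AMPA genes the closest were Srsf12 (0.985) and Atp6v1g2 (0.984) for Gria1, Nrxn2 (0.990) and Astn1 (0.985) for Gria2, S100a3 (0.991) and Cntn6 (0.989) for Gria3, and Thsd7a (0.987) and Fstl5 (0.982) for Gria4. For the kainate genes they were Tmem255b (0.997) and Pnlip (0.997) for Grik1, Col9a3 (0.976) and Sox6 (0.972) for Grik2, Elfn1 (0.976) and Snx22 (0.972) for Grik4, and Zcchc3 (0.979) and Irak1bp1 (0.979) for Grik5.

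The members are spread over the genome (GENCODE M21 annotation of GRCm38, the build mm10 of the files). Gria1 lies on chromosome 11 (57011387 to 57330244), Gria2 on chromosome 3 (80681450 to 80802835), Gria3 on chromosome X (41400854 to 41678601) and Gria4 on chromosome 9 (4417896 to 4796234). Grik1 lies on chromosome 16 (87895900 to 88290265), Grik2 on chromosome 10 (49094833 to 49788766), Grik3 on chromosome 4 (125490700 to 125714173), Grik4 on chromosome 9 (42518135 to 42944493) and Grik5 on chromosome 7 (25009849 to 25072346). Annotated genes that overlap them are microRNAs and other small RNAs, a pseudogene, and intronic or unclassified transcripts on the same strand, and none of these is a row of the table.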

How the data were processed

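Single cells of 3 libraries of 1 exposed group were analysed. CASAVA 1.8, Cell Ranger and Seurat were used with the build mm10, per the submitters' processing notes. The deposited values are natural log (ln) units: all 34958786 values above 0 became whole, within 1e-06, after the log was undone and 1 subtracted, so the authors deposited ln(1 + a count). These counts summed to between 4422 and 8135 per cell while detected genes ranged from 121 to 4213, so they are read as corrected for depth by a method not given in the sources used here, and the depth before correction is unknown. Totals per library were 24612481 to 29581504 corrected counts.

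The members, gene lists and tests were chosen with earlier results of these data known. Each cell was scaled to CPM and averaged by class and library, and log2(CPM + 10) was fitted in R 4.3.3 by limma 3.58.1, trend on, with a term for library, a replicate block, since both classes of a comparison come from the same library. Genes needed a mean of 5 CPM over the class means, classes needed 10 cells in each library, and p-values were Benjamini-Hochberg adjusted over all genes within a comparison at 0.05. Residual degrees of freedom were 10 for classes, 6 for dividing cells and 12 with oligodendrocytes. All groups of a fit shared 1 estimate of spread per gene. An SE or p-value therefore carries the spread of every group in the fit, and not of the 2 compared groups alone. Named genes are the 9 members, for each comparison the 4 called genes of the list that lay farthest from 0 in log2 fold, and the 2 genes most like each tested member. A listed gene that this rule names is not reported here. The script was tested on simulated data. Doublets were treated by dropping cells in 2 classes. Scrublet (scanpy 1.11.5) marked 287 cells (2.02%), removed as an alternative. The upper limit given for a gene at 0 corresponds to 3 cells, and intervals are at 95%.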

Additional observations from a re-analysis of the deposited data

Results flagged for a closer look

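The Gria2 difference between dividing and other cells was larger in neuroblasts than in OPCs by a test of the difference itself. The log2 fold was −0.27 in OPCs and −1.01 in neuroblasts, and the OPC effect minus the neuroblast effect was 0.74 ± 0.10 (SE; limma, Benjamini-Hochberg adjusted p = 1.24e-04). Of 10674 genes tested in this way, 1195 passed the threshold, and Gria2 was the 1 member among the 9 to do so. Both effects had the same sign in all 3 libraries. Among cells with at least 2000 detected genes the difference was 0.30 and missed the threshold (0.289). Dividing neuroblasts had more detected genes than other neuroblasts, and the part of that in the difference was not tested.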

How the results depend on the processing

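Of 867 alternative values of member log2 folds past the threshold, 809 kept direction and call, 56 missed the threshold and 2 turned. Both turns were Gria2 in Cajal-Retzius cells against neuroblasts (0.14 among cells with at least 2000 detected genes, 0.043 with means of the deposited log values). Of 617 values for 37 folds of other named genes, 607 kept their call, 10 missed the threshold and none turned. The oligodendrocyte comparison had no value with the planned minimum of 10 cells.

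Counts of called members that moved by over 1.5 times, and the ranges with a library left out, were as follows. In dividing OPCs, 2 members became 1 with a pseudocount of 1 CPM, with centred values or with cells of at least 2000 detected genes, and 0 to 1 with a library left out. In dividing neuroblasts, 4 became 1 with no filter on low values or with no replicate block, 2 with only the compared groups in the fit, with deposited log values or with cells of at least 2000 genes, and 2 to 4 with a library left out. The block changed no other count by this much. In neuroblasts against astrocytes 4 became 2 with deposited log values, in oligodendrocytes 8 became 5 with a filter of 10 CPM, and in OPCs against astrocytes 8 became 5 to 8 with a library left out. Leaving out a library also gave 5 to 8 in Cajal-Retzius cells (7 with all), 7 to 8 in neuroblasts against OPCs (8), 4 to 5 in neuroblasts against astrocytes (4) and 8 to 9 in oligodendrocytes (8). With detection set at 2 counts, Gria2 was in 93.0% and Gria3 in 37.5% of OPCs, and Gria2 was in 95.2% of those with Gria1, Gria3 or Gria4. Thinning gave 95.1%, 58.0% and 96.8%, and cells of at least 2000 genes gave 98.0% for Gria2.

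Other reversals were of folds that had not passed. Centred values gave, for neuroblasts against astrocytes, Gria1 0.020, Grik2 0.20 and Grik4 0.19; for Cajal-Retzius cells against neuroblasts, Gria3 −0.38; for microglia against astrocytes, Grik1 0.21 and Grik4 0.19; for endothelium against astrocytes, Grik1 0.045; for oligodendrocytes, Gria4 0.26; for dividing OPCs, Gria1 −0.16, Grik2 −0.14, Grik3 −0.15 and Grik4 −0.10; and for dividing neuroblasts, Gria3 −0.14, Grik1 −0.14 and Grik4 −0.058. Deposited log values gave Gria3 0.041 and Grik5 6.5e-05 in dividing OPCs, and Gria4 0.011 and Grik5 0.012 in dividing neuroblasts. A pseudocount of 1 CPM gave Gria3 −0.54 in Cajal-Retzius cells and Gria1 −0.0035 in dividing OPCs. Cells of at least 2000 genes gave Grik2 0.19 in neuroblasts against astrocytes, Gria3 −0.056 in Cajal-Retzius cells, Gria1 −0.052 and Grik3 −0.0073 in dividing OPCs and Gria4 0.18 in dividing neuroblasts. Class markers at 2 or more counts gave Grik3 −0.042 in dividing OPCs and Gria4 0.080 in dividing neuroblasts.

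With a library left out, folds that turned ranged as follows: neuroblasts against astrocytes, Grik1 −0.0090 to 0.038 and Grik2 −0.42 to 0.13; Cajal-Retzius cells, Gria3 −0.34 to 0.22; dividing OPCs, Gria1 −0.076 to 0.075, Grik2 −0.00035 to 0.061 and Grik3 −0.20 to 0.18; and dividing neuroblasts, Gria4 −0.26 to 0.14 and Grik5 −0.26 to 0.051.

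Numbers of all genes called that moved most were 5395 in OPCs against astrocytes, 8550 with the compared classes alone, 8638 with array weights and 3588 with oligodendrocytes added; 1794 in dividing OPCs, 984 to 3543; 4598 in dividing neuroblasts, 2682 with cells of at least 2000 genes; and 6945 in oligodendrocytes, 3295 with the compared classes alone and 4426 with array weights. The cause of these shifts was not tested. The classes of oligodendrocytes and Cajal-Retzius cells held few cells in each library.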
